A study of Bos taurus with 6 samples.

Results

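The epidermal growth factor (EGF) family was examined in intramuscular fat (IMF) of Qinchuan cattle, in pooled RNA of steers and of bulls. The family was taken as 10 named genes, 6 ligands (HBEGF, AREG, EREG, TGFA, BTC and NRG1) and 4 receptors (EGFR, ERBB2, ERBB3 and ERBB4), chosen by symbol. Of these, 8 were rows among the 25444 genes of the mRNA count table. AREG was read from the row AREGB, which is its older symbol in RefSeq, and ERBB2 was not analysed here. Reads were counted on 7 of these 9 rows, and only 3 of them (HBEGF, EGFR and ERBB3) had at least 10 counts in each library.

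All animals were male, were weaned at 3 months and were slaughtered at 24 months after the same diet. The steers (CM) had been castrated by surgery at 6 months and the bulls (IM) were intact. IMF was dissected from the sternomandibularis, a neck muscle. The mRNA data hold 1 library of steers and 1 of bulls, each from RNA pooled over 6 animals by the design text and over 3 by the sample labels. The small RNA data hold 2 libraries of each group, each from a pool of 3 animals by the design text and from 1 by the labels. A pool gives no spread between animals, so a large value in 1 animal cannot be told apart from a moderate value in all.

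EGF family ligands are made as precursors anchored in the cell membrane and are cut free by proteases of the ADAM family. HBEGF, AREG, EREG, TGFA and BTC bind EGFR, some of them also ERBB4, and NRG1 binds ERBB3 and ERBB4. ERBB2 has no ligand of its own, and ERBB3 has a weak kinase and signals through a partner receptor. Bound receptors drive the RAS/MAPK relay, which switches on early response genes such as FOS, and in cultured preadipocytes ligands of EGFR can hold back differentiation into fat cells.

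HBEGF carries the link between the family and the small RNA data, because the study tested its 3' end against let-7i in a reporter. It reported lower reporter activity with let-7i, and an effect of let-7i on HBEGF mRNA in bovine pre-adipocytes. The mature sequences of let-7i and its relatives are printed because they share the seed (bases 2 to 8, in capitals), which pairs with a target mRNA. They come from the sequence column of a supplementary table of the study, 5′ to 3′.
let-7i: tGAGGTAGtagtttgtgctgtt
let-7g: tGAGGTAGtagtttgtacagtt
let-7b: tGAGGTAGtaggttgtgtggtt
let-7a-5p: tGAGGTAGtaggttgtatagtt
let-7c: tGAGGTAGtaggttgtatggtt
let-7f: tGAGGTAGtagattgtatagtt
miR-98: tGAGGTAGtaagttgtattgtt
let-7d: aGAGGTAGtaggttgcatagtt
let-7e: tGAGGTAGgaggttgtatagt
All 9 had the same seed. Outside it they differed from let-7i at 2 positions (let-7g) to 6 positions (let-7d and let-7e, whose missing last base is included), so that reads of near relatives may be hard to tell apart. The receptor-linked miRNAs follow for comparison, miR-125a and miR-125b, known from other work to act on ERBB2 and ERBB3, miR-7 on EGFR and miR-205 on ERBB3.
miR-125a: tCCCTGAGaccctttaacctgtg
miR-125b: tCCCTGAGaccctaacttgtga
miR-7: tGGAAGACtagtgattttgttgtt
miR-205: tCCTTCATtccaccggagtctg
For HBEGF mRNA itself, the sequences at hand are the primers of the study's qRT-PCR, 19 bases each.
HBEGF sense primer: gaaagaagaaaggcaaggg
HBEGF antisense primer: gatgaccagcagacagacg

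The mRNA counts summed to 12677375 in steers and 9868415 in bulls and were divided by size factors (median of ratios) of 1.04 and 0.959. A two-sided exact binomial test set the pair of counts of each gene against these factors, and its p was adjusted by Benjamini-Hochberg over 17752 genes, those on which any read was counted. Differences are given as log2FC, the log2 of the ratio of steers to bulls, and a gene was called where the adjusted p was below 0.05 and the ratio was more than 2-fold in either direction. No replicate checks the mRNA values, so the test sets library against library and not condition against condition, and the 95% intervals hold counting error alone. Scaling by total counts moved the median log2FC of all genes to -0.24. Adipocyte markers were abundant in both pools: ADIPOQ had 4513 counts in the steers pool against 6651 in the bulls pool, and PLIN1 had 4499 against 5386. Of 9 adipocyte genes, 1 was called higher (CIDEA, 998 against 136) and 1 lower (FABP4, 3951 against 7574), both named after their values were seen, and 4 were above 0 on the log2FC scale. Skeletal muscle RNA was present as well, with 13852 against 19910 counts of ACTA1 and 4191 against 6133 of CKM. Of 12 muscle genes, 1 was called higher and 3 lower, and 4 were above 0. The markers of the labelled tissue were thus found, beside those of the muscle around it. In pooled tissue RNA, fewer cells of a type and less RNA per cell cannot be told apart.

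HBEGF, the heparin-binding ligand of EGFR and ERBB4, was the only member called lower in steers, and no member was called higher. Over all genes tested, 8.5% were called lower and 4.66% higher, so 1 of 7 tested rows is no large share. HBEGF had 28 counts in steers and 75 in bulls, or 26.8 normalized counts (interval 17.8 to 38.8) against 78.2 (61.5 to 98.1). The 2 intervals did not overlap. The log2FC was -1.54 (-2.22 to -0.90), with an adjusted p of 2e-06 from the exact binomial test. With an assumed biological coefficient of variation (BCV) of 0.2 between pools, the edgeR exact test gave an adjusted p of 0.06 and the call was lost. HBEGF is one of the genes that the study picked from these libraries.

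Macrophages are a known source of HBEGF, and myeloid markers were lower in steers too. In a list of 13 myeloid genes, 12 had a row, 10 were called lower in steers and none was at 0 in either library. Their counts summed to 33619 in steers and 85670 in bulls, or 0.265% and 0.868% of all counts. CD68 and CD14, which mark monocytes and macrophages, had log2FCs of -1.79 (-1.93 to -1.65) and -2.34 (-2.48 to -2.21). The 2 genes not called were CD163 at -0.64 (-0.69 to -0.59) and CSF1R at -0.92 (-0.97 to -0.88). These differences were smaller than that of HBEGF. CD74 held 12658 and 41520 of the summed counts of the list. These 3 genes were named after their values were seen. Per 100000 counts of the myeloid list there were 83.3 counts of HBEGF in steers and 87.5 in bulls, a ratio of 0.951 with a counting interval of 0.593 to 1.49. The ratio was 1.19 (0.732 to 1.87) against CD68 alone and 1.74 (1.07 to 2.75) against CD14 alone, so the intervals of the list and of CD68 include 1 and that of CD14 does not. No ratio was taken against CD163 or CSF1R, nor against the list without CD74, which weighs heavily in its sum. The part of myeloid RNA in the HBEGF result was not tested. T lymphocyte markers (10 of 11 called lower, CD3E with 35 and 253 counts, CD3G at 0 in steers) and mast cell markers (5 of 7 called lower, KIT with 145 and 284 counts) moved the same way. Their summed counts were 188 and 1077 for T lymphocytes and 398 and 728 for mast cells. Per 100000 counts of the mast cell list there were 7035 counts of HBEGF in steers and 10302 in bulls. That ratio was 0.683 (0.419 to 1.09), and its interval includes 1. No ratio was taken against the T lymphocyte list. The part of T lymphocyte and mast cell RNA was not tested either.

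BTC, or betacellulin, which binds EGFR and ERBB4, was the other ligand with more than a few counts. Its 13 counts in steers against 6 in bulls gave a log2FC of 0.99 (-0.50 to 2.68), and it was not called (adjusted p = 0.31, exact binomial test). BTC took 31.0% (17.6 to 47.1, exact binomial interval) of the 42 ligand counts in steers and 7.14% (2.67 to 14.9) of the 84 in bulls. HBEGF took 66.7% (50.5 to 80.4) and 89.3% (80.63 to 94.98), the larger part in both. Relative to each other within a library, which does not depend on the scaling, there were 464 counts of BTC per 1000 of HBEGF in steers and 80.0 in bulls. That ratio was 5.80 times as high in steers, with a counting interval of 1.81 to 20.2. The ligand counts thus leaned further to HBEGF in bulls, although HBEGF had the larger count in both pools.

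The remaining ligands were at the edge of detection. AREG, the ligand amphiregulin, had 1 count in each library, a ratio that its counts leave undetermined (log2 interval -6.42 to 6.17). NRG1, or neuregulin, had 0 counts in steers and 2 in bulls. EREG (epiregulin) and TGFA (transforming growth factor alpha) had 0 counts in both libraries. A count of 0 was read as up to 3 counts, or 0.237 CPM (counts scaled to the library total) in steers and 0.304 CPM in bulls. EREG and TGFA were thus not detected at this depth, which does not show that they were absent. In the RefSeq annotation of assembly ARS-UCD2.0, EPGN, EREG, AREG and BTC lie next to each other on chromosome 6, with 2 annotated genes between EREG and AREG and none between the other neighbours. Of the 3 that were analysed here, EREG, AREG and BTC, BTC alone had more than 1 count in a library. Of 5 further ligand genes outside the family list, EGF, NRG3 and NRG4 were also at 0 in both libraries, and EPGN and NRG2 were not analysed here.

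**Figure D1:**
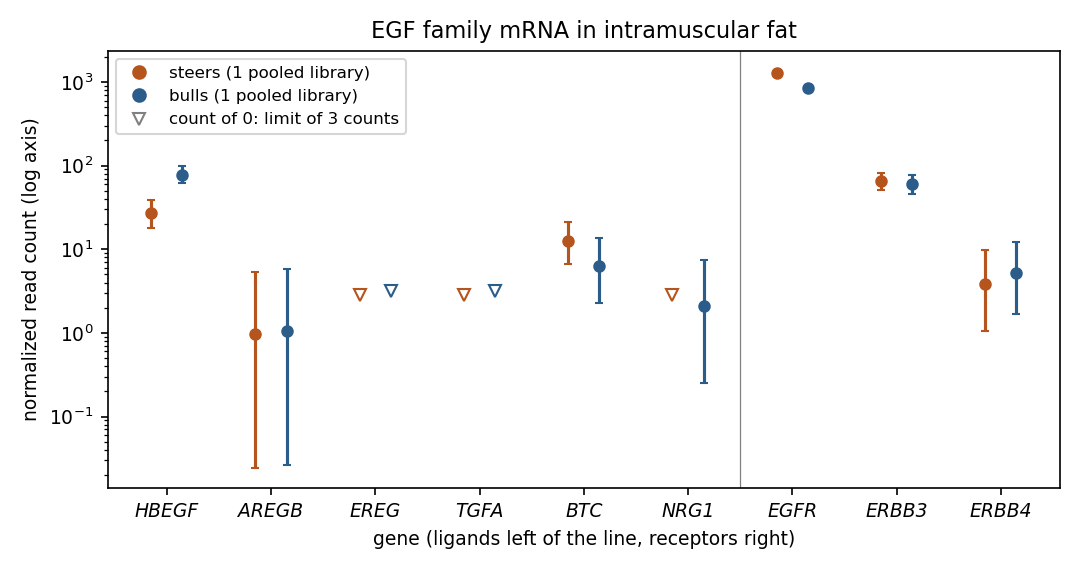
Normalized read count (log axis) of each member in the steers pool and the bulls pool; points are counts divided by the size factor, bars are exact 95% Poisson intervals, and open triangles mark a count of 0 at the limit of 3 counts. HBEGF is at 26.8 in steers and 78.2 in bulls, while EGFR is the member with the most counts in both.

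EGFR, the shared receptor of the EGFR ligands, had the most counts of all members, 1354 in steers and 817 in bulls. These are 1298 (1230 to 1369) and 852 (795 to 913) normalized counts, and the intervals did not overlap. The log2FC was 0.61 (0.48 to 0.73) with an adjusted p of 1.1e-20 from the exact binomial test, and EGFR was not called because it lay under the 2-fold threshold. It was 0.37 with total counts, and with an assumed BCV of 0.2 the adjusted p of the edgeR exact test was 0.63.

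Because HBEGF and EGFR differed in opposite directions, the count of the ligand per count of the receptor differed more than either gene alone. There were 20.7 counts of HBEGF per 1000 of EGFR in steers and 91.8 in bulls. The ratio was 4.44 times as high in bulls, with a counting interval of 2.81 to 7.18, and it does not depend on the scaling between the libraries. It is a ratio of counts, and it says nothing on the amounts of the proteins.

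Fibroblasts and their precursors are rich in EGFR, and most of their markers had higher values in steers. Of 9 fibroblast genes, 7 were above 0 on the log2FC scale and 2 below, with 2 called higher and none lower. Their counts summed to 1176023 in steers and 558910 in bulls, with no marker at 0. Per 1000 counts of PDGFRA, a receptor of fibroblasts and progenitors, there were 677 counts of EGFR in steers and 319 in bulls, a ratio of 2.13 (1.91 to 2.36). Per 1000 counts of the matrix gene DCN there were 17.8 and 12.0, a ratio of 1.48 (1.36 to 1.62). Per 1000 counts of COL1A1, the main collagen gene, the direction turned, with 4.19 and 5.52 and a ratio of 0.759 (0.695 to 0.829). Per 100000 counts of the whole fibroblast list there were 115 counts of EGFR in steers and 146 in bulls. That ratio was 0.788 (0.722 to 0.860), so EGFR was lower in steers relative to the summed list. Collagen genes held most of this sum: COL1A1 323285 and 148046 counts, COL1A2 322757 and 155951, and COL3A1 405713 and 154733. COL1A2 and COL3A1 were named after their values were seen. The list ratio thus mainly reflects these collagen genes, while the ratios to PDGFRA and DCN went the other way. Per 100000 counts of the adipocyte list there were 3964 counts of EGFR in steers and 2153 in bulls, a ratio of 1.84 (1.68 to 2.01). The part of fibroblast or adipocyte RNA in the EGFR value was not tested.

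ERBB3, which binds neuregulins, had 68 counts in steers and 58 in bulls, or 65.2 (50.6 to 82.6) and 60.5 (45.9 to 78.2) normalized counts. The intervals overlapped over most of their length. Its log2FC was 0.11 (-0.42 to 0.64), with an adjusted p of 0.85 from the exact binomial test, and it was -0.13 with total counts. The interval does not reach a 2-fold difference in either direction. ERBB4, the other receptor of neuregulins, had 4 and 5 counts and a log2FC of -0.44 (-2.78 to 1.77).

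ERBB3 is known from Schwann cells, the sheath cells of nerves, and from epithelia. Of 8 Schwann cell genes with a row, 2 were called higher in steers and 1 lower, none was at 0, and their counts summed to 5598 and 3562. SOX10, a defining factor of these cells, had 25 counts in steers and 13 in bulls. Of 8 epithelial genes tested, 4 were called higher in steers, where the list had 362 counts against 59 in bulls. EPCAM, a defining epithelial gene, had 8 counts in steers and 0 in bulls. Per 100000 counts of the Schwann cell list there were 1215 counts of ERBB3 in steers and 1628 in bulls, a ratio of 0.746 (0.516 to 1.08). For the epithelial list the ratio was 0.191 (0.120 to 0.306). The interval of the Schwann cell ratio includes 1 and that of the epithelial ratio does not, and the part of either cell type in the ERBB3 value was not tested.

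Most receptor counts were of EGFR, 1354 of 1426 in steers (94.95%, interval 93.68 to 96.03) and 817 of 880 in bulls (92.84%, 90.93 to 94.46). ERBB3 took 4.77% (3.72 to 6.01) and 6.59% (5.04 to 8.44), and ERBB4 0.281% and 0.568%. These shares also depend on transcript length, which was not at hand, so they are compared between libraries and not between genes. Counts of ERBB2 are not included in them.

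**Figure D2:**
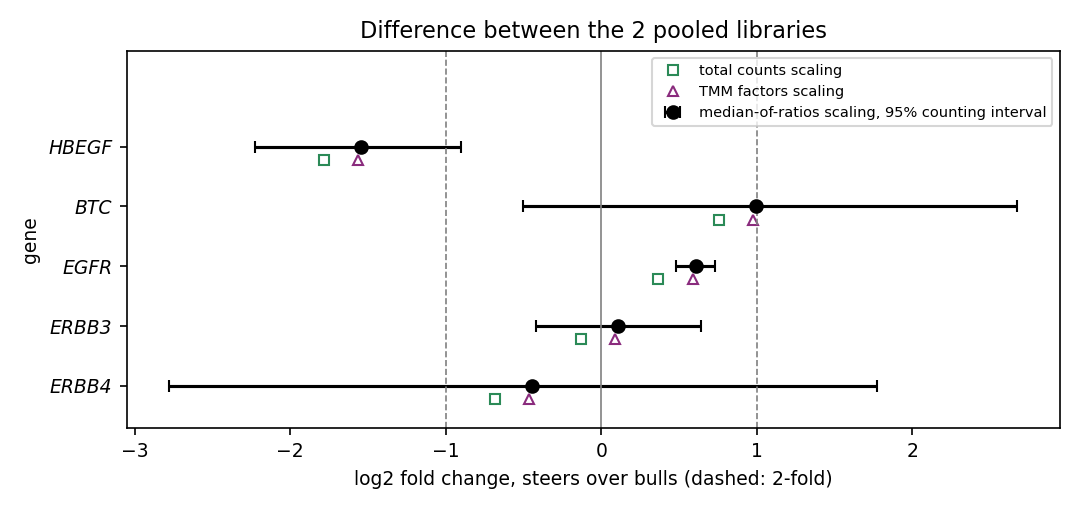
Log2FC (steers over bulls) of the 5 members with at least 5 counts in all; black points are median-of-ratios values with 95% counting intervals, and open symbols are values with other scalings. HBEGF lies at -1.54, to the left of the dashed 2-fold line under each scaling shown, EGFR at 0.61, and the intervals of BTC, ERBB3 and ERBB4 include 0.

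The other genes of the pathway were read from lists ordered by role, 67 names in all, of which 62 had a row and 59 had a count. Of these, 2 were called higher and 8 lower in steers, against 4.66% and 8.5% of all genes. Their median log2FC, with 0.5 counts added to each library, was -0.18, compared with 0.01 over all genes.

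The proteases that release the ligands, and their regulators, had a median of 0.18 over 9 genes. ADAM12, a sheddase that can cut HBEGF, was called higher in steers, with 520 and 143 counts and a log2FC of 1.74 (1.47 to 2.02). RHBDF2, an inactive rhomboid that carries ADAM17 to the cell surface, was called lower, with 97 and 198 counts and a log2FC of -1.15 (-1.52 to -0.79). ADAM17, the main sheddase of EGFR ligands, was added after its value was seen. It had 524 and 569 counts, a log2FC of -0.24 (-0.42 to -0.07), and was not called. With an assumed BCV of 0.2 the edgeR exact test kept the call of ADAM12 (adjusted p = 0.0026) and lost that of RHBDF2 (0.14). Of the 9 genes, 5 that were not called, ADAM17 among them, had an adjusted p under 0.05 in the exact binomial test with smaller folds. In all, 5 were above 0 on the log2FC scale and 4 below. Genes of ligand release thus differed in either direction and not as a group.

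Of 11 genes that restrain the receptors, the exact binomial test called none higher and none lower (5 had an adjusted p under 0.05 with smaller folds), and the median was -0.08. RNF41, which targets ERBB3 for breakdown, was at 0.00 (-0.19 to 0.18), SOCS5 at 0.48 (0.28 to 0.67) and ERRFI1, an inhibitor of the EGFR kinase, at -0.52 (-0.75 to -0.29). The relay from receptor to kinase was as even, with a median of 0.02 over 15 genes and none called (5 had an adjusted p under 0.05). SHC1, an adaptor of EGFR, was at 0.76 (0.68 to 0.84) and MAPK3 at 0.04 (-0.04 to 0.13).

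Differences were found further down the pathway. DUSP6, a phosphatase of the MAP kinases that is itself switched on by them, was called lower in steers, with 481 and 1381 counts and a log2FC of -1.64 (-1.80 to -1.49). It was the only one called of 10 genes that restrain RAS and MAPK signalling, whose median was -0.53. Of 14 early response genes, 6 were called lower and 1 higher in steers, and the median was -0.76. FOS had 3029 and 6525 counts (log2FC -1.23, interval -1.29 to -1.17) and FOSB 477 and 1754 (-2.001, -2.150 to -1.854). ATF3, a stress-induced factor, had 62 and 364 counts and the largest difference of the list, -2.68 (-3.09 to -2.28).

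JUN, the partner of FOS, was at -1.08 (-1.15 to -1.01) with 2774 and 5383 counts. EGR3 had 20 and 58 counts and a value of -1.66 (-2.47 to -0.90), and FOSL1 had 5 and 19 counts and one of -2.05 (-3.83 to -0.58). PHLDA1 was called higher at 1.02 (0.74 to 1.31), but with total counts it was at 0.78 and was not called. FOSB, ATF3 and JUN are among the genes that the study picked from these libraries. With an assumed BCV of 0.2, the edgeR exact test kept the calls of FOSB, ATF3 and DUSP6 and lost those of FOS (adjusted p = 0.05), EGR3 (0.054), JUN (0.12), FOSL1 (0.18) and PHLDA1 (0.2). Early response genes answer to many stimuli besides EGF family ligands, and the list was not tested for its relation to HBEGF.

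**Figure D3:**
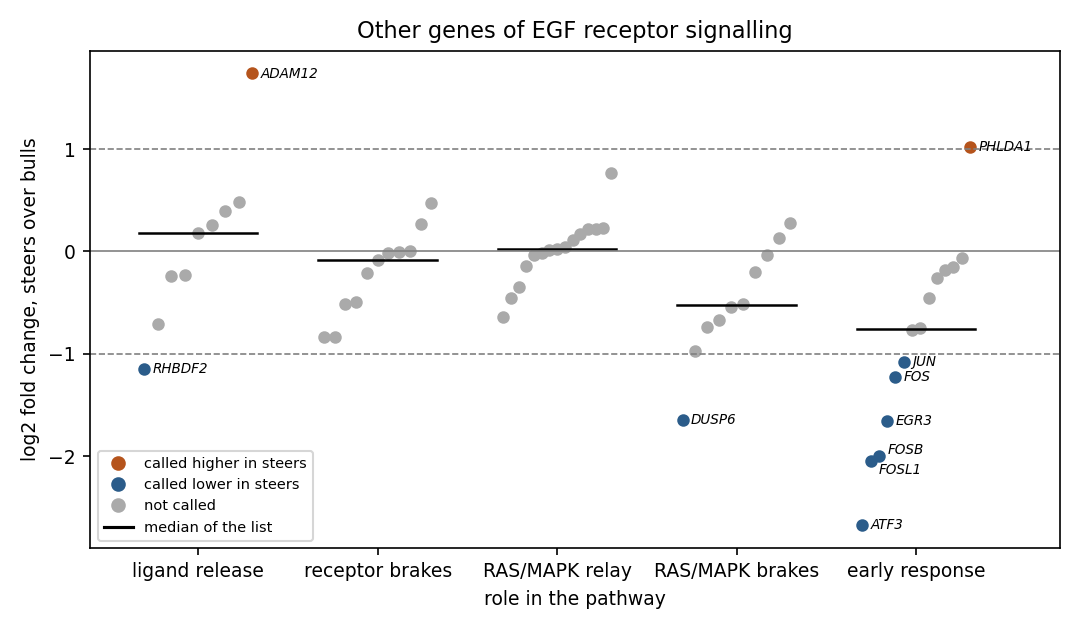
Log2FC (steers over bulls) of the other pathway genes by role; each point is a gene, coloured by its call, and bars are medians of the lists. Early response genes and DUSP6 hold 7 of the 8 genes called lower in steers, while the RAS/MAPK relay lies near 0 with a median of 0.02.

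In the small RNA libraries, let-7i was the most abundant of the let-7 sequences, and its normalized level was higher in both libraries of steers than in both of bulls. The steers libraries held 10452582 and 8859844 counts, and those of bulls 7784227 and 6556511. All 1073 sequences that passed edgeR's filter were fitted together with TMM factors, and groups were compared with edgeR's quasi-likelihood test, called as above. The study's methods give 6 animals a group and 3 a library, which would make the 2 libraries of a group separate pools, although the labels do not say so, and p-values measure the spread between these libraries. Let-7i was at 57194 and 65201 CPM in steers and at 34781 and 24237 CPM in bulls. Its log2FC was 1.05 (SE 0.43), a difference which edgeR's test did not call (adjusted p = 0.0808). Without the first library of bulls it was called, at 1.52 (adjusted p = 0.00211, edgeR), whereas without the other libraries in turn it was not. Let-7i is the miRNA that the study set against HBEGF. By its own method the study listed let-7i as higher in steers, and its qRT-PCR had the same direction.

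Of the 9 sequences with the let-7 seed, none was called in either direction by edgeR's quasi-likelihood test, and 1 had an unadjusted p under 0.05, while DESeq2 called 1, let-7i, as higher. Over all sequences tested, 7.08% were called higher and 7.08% lower. Both libraries of steers lay above both of bulls for 7 of the 9, against 26.7% of all sequences, and below them for 1 (let-7d), against 31.5%. With total counts in place of TMM, they lay above for 1 (let-7i), against 10.9% of all sequences, and below for 2 (let-7d and let-7g), against 45.7%, and the log2FC of let-7f, let-7a-5p and let-7b turned to -0.20, -0.035 and -0.073. Let-7c was at 8052 and 7750 CPM in steers and 5270 and 4800 in bulls, a log2FC of 0.65 (SE 0.46). Let-7a-5p was at 0.43 (SE 0.44), let-7e at 0.46 (SE 0.48), let-7b at 0.38 (SE 0.48), let-7f at 0.25 (SE 0.44) and miR-98 at 0.62 (SE 0.49). Let-7g at -0.34 (SE 0.47) and let-7d at -0.86 (SE 0.50) lay on the other side. Near-identical sequences may share reads, so these 9 cannot be taken as independent.

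Together, the 9 sequences made up 9.35% and 12.4% of a steers library and 9.01% and 10.1% of a bulls library. These shares differed less between the groups than between the 2 libraries of steers. The TMM-normalized sum was 125368 and 128307 CPM in steers and 92736 and 71035 CPM in bulls, where the groups did not overlap, so the difference of the family rests on the TMM scaling. Within the family, which does not depend on the scaling, let-7i accounted for 45.6% and 50.8% of the reads in steers and for 37.5% and 34.1% in bulls. The shares of the groups did not overlap, and 2 libraries against 2 cannot give a two-sided p below 0.333 in an exact permutation test.

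The receptor-linked miRNAs had lower mean values in steers, without a call, and these values rest largely on the first library of bulls. MiR-125b was at 6166 and 4337 CPM in steers and 12521 and 7766 CPM in bulls, a log2FC of -0.95 (SE 0.46, adjusted p = 0.155 in edgeR's test). MiR-125a, which has the same seed, was at -0.72 (SE 0.47), and its groups overlapped. Without the second library of bulls both were called, at -1.29 and -1.19, whereas without the first miR-125b was at -0.37 and miR-125a turned to 0.11. MiR-7 was counted 10 and 9 times in steers and 22 and 15 times in bulls, a log2FC of -0.93 (SE 0.65), which was -0.27 without the first library of bulls. MiR-205 was counted 0 and 2 times in steers and 3 and 6 times in bulls and did not pass the filter. Let-7a-3p, from the other arm of a let-7a precursor and without the let-7 seed, was at -1.05 (SE 0.51, adjusted p = 0.153).

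**Figure D4:**
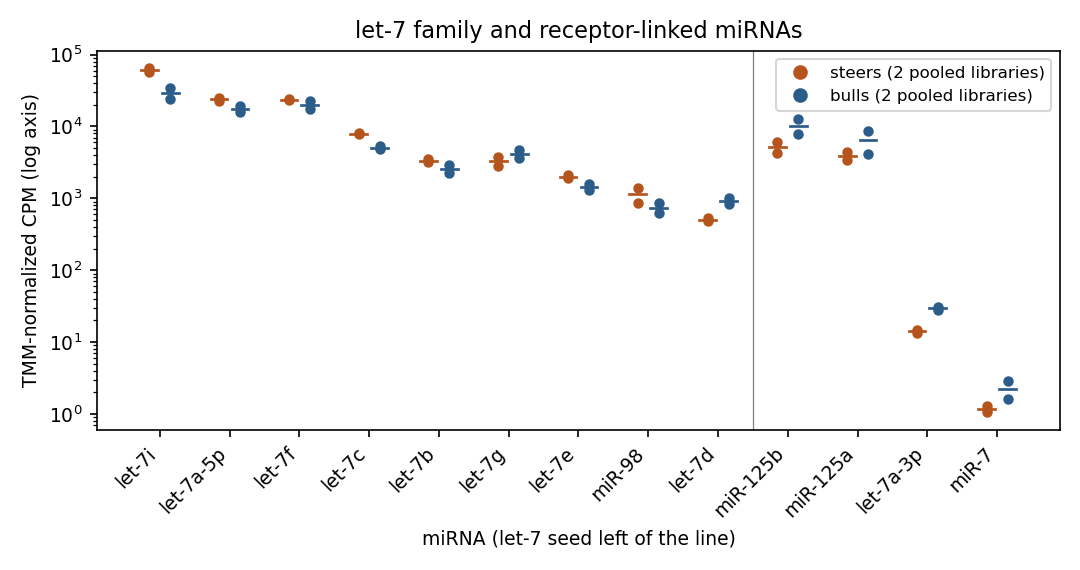
TMM-normalized CPM (log axis) of the let-7 sequences and the receptor-linked miRNAs in each small RNA library; points are libraries and bars are group means. Let-7i is at 57194 and 65201 CPM in steers and at 34781 and 24237 CPM in bulls, and let-7d and miR-125b have their higher values in bulls.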

How the data were processed

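The authors deposited raw counts per gene (mRNA, Ion Proton) and per mature sequence (small RNA, Illumina HiSeq). Per the paper's methods, cleaned mRNA reads were aligned to a bovine genome with MapSplice, and small RNA reads with BWA to miRBase and that genome. The sample labels list the human build GRCh37.p13. The counting program, its use of strand and its treatment of multi-matching reads are not given in the sources used here. Libraries were grouped by title and treatment label.

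mRNA pairs were compared with the exact binomial test of scipy 1.17.1 after median-of-ratios scaling. Small RNA counts were fitted in edgeR 4.0.16 (filterByExpr, TMM, glmQLFit, glmQLFTest), with SE taken as |log2FC|/√F. Both were run on simulated data with 200 features changed 4-fold. The simulated mRNA counts had no spread between pools, so that run says nothing on such spread. Shares have Clopper-Pearson intervals, ratios of 2 genes conditional exact intervals, and normalized counts Poisson intervals, all at 95%. They hold counting error alone, and they may be too narrow even for that, as copies of the same molecule can be read more than once. A count of 0 was read as up to 3 counts. Results were recomputed with other scalings, another count minimum, no fold threshold, a prior of 5 counts, an assumed BCV, DESeq2 1.42.0, a replicate block, known bovine sequences alone, and without each small RNA library in turn. The members, lists, tests and pairs of genes were chosen with earlier results of these data known. All members are named, then the called genes of each pathway list (without any, the 3 with the most counts) and defining markers; 1 gene that this rule names is not reported here. Levels per length and like-patterned genes are not given, as no transcript lengths were at hand and 2 libraries give 1 ratio.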

Additional observations from a re-analysis of the deposited data

How the results depend on the processing

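HBEGF kept its direction and its call under every other scaling and filter, with log2 fold changes of -1.78 (total counts) to -1.53 (upper quartile), and lost the call with an assumed BCV of 0.2 or 0.4, where 0 members were called lower. Without a fold change threshold, EGFR was called, so that 1 member was called higher. With an assumed BCV of 0.2, 1 of the other pathway genes was called higher and 3 lower, and with 0.4 none was (0 and 0). Without a fold change threshold 9 were higher and 24 lower, and with total counts 1 was higher and 12 lower, against 2 and 8. Over all genes, 827 were called higher and 1509 lower, 559 and 2089 with total counts, 368 and 762 with a BCV of 0.2, 52 and 93 with 0.4, and 3619 and 3354 without a fold change threshold.

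Of the let-7 and receptor miRNAs, 1 (let-7i) was called higher by DESeq2 at 1.13 and among known bovine miRNAs alone at 1.21. Leaving out each library in turn gave 0 to 1 called higher and 0 to 2 called lower. A lone library is then assumed to vary like the other group. With the replicate number as a block, 1 was called higher (let-7i, 1.07) and 1 lower (let-7a-3p, -1.05). Same-numbered libraries share only a number, and their deviations had a correlation of 0.304. Over all sequences, 76 were called higher and 76 lower, 133 and 119 with the block, 1 and 0 with total counts, 101 and 52 with upper-quartile factors, and 34 and 36 without the filter. Of the uncalled values, those of ERBB3 (-0.13), let-7f (-0.20), let-7a-5p (-0.035) and let-7b (-0.073) changed sign with total counts, and those of let-7g (-0.55 to 0.050) and miR-125a (-1.19 to 0.11, over the libraries left out) without the first library of bulls. The cause of these changes was not tested. In the mRNA data no paired analysis was possible because each group has 1 library.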
